A study of Rattus norvegicus with 6 samples.

Results

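The lncRNA transcripts assigned to the hepatocyte genes Slc27a5, Afp, MBL2 and Fga were taken from a table of long non-coding RNAs (lncRNAs, long transcripts that the authors selected as not coding for protein) as all rows that carry one of these names. There were 4 such transcripts among 2455 with values, 1 for each gene, and each was the single listed transcript of its locus. The transcripts at Slc27a5, Afp and MBL2 were highest in liver. The transcript at Fga went against the liver pattern: it was listed at 0 in liver and had its highest level in adrenal gland. They were chosen by gene name with their FPKM already known, as loci of genes known for their products in fetal or adult hepatocytes. The contrast of liver with the other tissues is therefore given as a description, without a test.

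RNA came from liver, adrenal gland, hypothalamus, left ventricle, cortex and outer medulla of male BN rats of the inbred Brown Norway strain at 6 weeks of age, with no treatment named in the labels. Each tissue was 1 sample and had 2 columns of FPKM (fragments scaled to transcript length and to library size), called column 1 and column 2 here and always given in that order. The labels do not tell whether both columns of a tissue are from 1 animal, so any p-value reflects no more than how far columns stood apart, possibly for technical reasons. The code of the hypothalamus columns was matched to that label by elimination, and cortex is labelled without its organ. A transcript at Slc12a1, a salt transporter of the kidney, had an FPKM of 36.5 and 36.6 in outer medulla and of 12.2 and 14.7 in the sample labelled cortex, against 0 in both hypothalamus columns. Messenger RNAs of hepatocyte markers are not among the transcripts analysed here, so the label of the liver columns was not checked against them.

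Hepatocytes, the main cells of liver, make most of the proteins of blood plasma and the bile acids. Slc27a5 encodes a bile acid-CoA ligase, which prepares bile acids for coupling to glycine or taurine. Afp encodes alpha-fetoprotein, a relative of albumin and a main plasma protein of the fetus that is largely silenced after birth. MBL2 is a mannose-binding lectin, a secreted protein that binds sugars on microbes and starts the lectin pathway of complement. Fga encodes the alpha chain of fibrinogen, the clotting protein that is built together with the products of Fgb and Fgg.

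The transcripts related to these genes in 2 ways. TCONS_00008160 at Slc27a5 (rn5 chromosome 1, 66385127 to 66398417, 1802 bases) and TCONS_00032321 at Afp (chromosome 14, 19045306 to 19067264, 900 bases) were listed as lying antisense to an exon. TCONS_00006231 at MBL2 (chromosome 1, 255674112 to 255980435, 1489 bases) and TCONS_00056419 at Fga (chromosome 2, 201289081 to 201454615, 1811 bases) were listed with another overlap of an exon. These are the intervals of the loci, whose starts may count from 0 or 1. The antisense transcripts sat in loci of 13290 and 21958 bases, and the overlapping ones in loci of 306323 bases at MBL2 and 165534 bases at Fga, which is 206 and 91.4 times the transcript's length. In the RefSeq annotation of another rat assembly (GRCr8), the protein-coding genes beside Fga were Fgg and Lrat on one side and Fgb and Plrg1 on the other. Beside Mbl2 they were Gldc and Uhrf2, and Dkk1 and Prkg1, while Afp lay between Afm and Alb of the albumin family, and Slc27a5 between Zfp446 and Zbtb45. No other transcript of the table lay within 200 kb of any of the 4 loci. The libraries were made with a stranded kit, but no source used here states the strand setting of the counting. Reads of a gene and of its antisense transcript may therefore not have been told apart. An overlapping transcript may share reads with its gene.

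The start regions of the 4 reference genes are shown because liver-enriched factors of the HNF1, HNF4 and C/EBP families are known to act at such promoters, and 3 of the 4 loci were liver-high. They run from 250 bases before to 50 after the gene's start in RefSeq (GRCr8), and the capitals mark matches to GTTAAT (the core of an HNF1 site), TTGCNNAA (C/EBP), and CAAAGTCCA (HNF4) on either strand.
Slc27a5, chr1:82699286-82699585, - strand: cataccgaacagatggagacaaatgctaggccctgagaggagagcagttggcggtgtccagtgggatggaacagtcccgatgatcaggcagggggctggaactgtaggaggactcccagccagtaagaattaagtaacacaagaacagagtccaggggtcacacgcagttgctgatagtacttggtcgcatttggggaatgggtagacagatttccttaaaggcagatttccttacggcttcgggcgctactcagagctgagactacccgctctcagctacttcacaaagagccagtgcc
Afp, chr14:17875596-17875895, - strand: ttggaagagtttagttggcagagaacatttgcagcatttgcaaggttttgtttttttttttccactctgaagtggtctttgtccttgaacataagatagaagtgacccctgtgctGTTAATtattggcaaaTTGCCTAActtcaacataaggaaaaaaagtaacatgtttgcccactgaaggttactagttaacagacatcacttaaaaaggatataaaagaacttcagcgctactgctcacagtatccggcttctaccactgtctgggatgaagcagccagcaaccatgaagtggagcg
Mbl2, chr1:237430793-237431092, + strand: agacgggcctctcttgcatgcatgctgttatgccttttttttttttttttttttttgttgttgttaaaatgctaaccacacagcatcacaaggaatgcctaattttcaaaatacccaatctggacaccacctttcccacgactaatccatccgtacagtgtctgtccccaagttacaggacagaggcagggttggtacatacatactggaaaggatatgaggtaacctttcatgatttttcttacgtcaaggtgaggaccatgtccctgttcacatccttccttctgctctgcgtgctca
Fga, chr2:170671919-170672218, + strand: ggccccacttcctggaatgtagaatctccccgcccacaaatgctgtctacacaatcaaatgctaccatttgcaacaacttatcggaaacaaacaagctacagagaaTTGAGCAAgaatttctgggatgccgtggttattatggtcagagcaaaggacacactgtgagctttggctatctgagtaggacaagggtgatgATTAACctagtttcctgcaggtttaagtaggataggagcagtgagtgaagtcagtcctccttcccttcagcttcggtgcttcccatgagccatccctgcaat
The start at Fga held GTTAAT on the reverse strand at -52 and TTGCNNAA on the reverse strand at -144, and the start at Afp held GTTAAT at -135 and TTGCNNAA at -119, with no overlap between matches. The windows of Slc27a5 and Mbl2 held none of the 3 letter strings. Of 27457 RefSeq promoters of this length, 7.37% held GTTAAT, 10.5% TTGCNNAA and 0.375% CAAAGTCCA. The windows belong to the reference genes, and the starts of the lncRNAs themselves are not given. Among the 4, the transcript at the gene with an HNF1 core was liver-high at Afp and listed at 0 in liver at Fga.

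The transcript antisense to Slc27a5 was high in liver, at 8.41 and 4.97 FPKM, and ranked 99 among the 2455 transcripts by its liver mean of 6.69. It had 0.176 and 0.238 in left ventricle, 0.0351 and 0 in cortex, and 0.0218 and 0.0190 in hypothalamus. Outer medulla and adrenal gland were listed at 0 throughout. The liver columns therefore stood far above all 10 others, and the next tissue was left ventricle. The low values of the table fell on steps of whole fragments, from which the fragments behind a value can be read if a mean fragment of 140 bases is assumed. On that reading the liver values rested on 169 and 32 fragments, those of left ventricle on 3 and 4, and the others above 0 on 1 each.

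The transcript that overlaps MBL2 was the most abundant of the 4. It had 13.1 and 11.7 FPKM in liver, a mean of 12.4 and rank 58. Left ventricle had 0.0724 and 0.512, cortex 0.0432 and 0.0499, and outer medulla 0 and 0.0404. Adrenal gland and hypothalamus were listed at 0 throughout. The liver columns rested on 214 and 61 fragments. In left ventricle the columns held 1 and 7 fragments, so this second tissue rested mainly on column 2. In cortex and in outer medulla column 2 each value above 0 was a single fragment.

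The transcript antisense to Afp was much lower, at 1.41 and 0.679 FPKM in liver, a mean of 1.04 and rank 457. Outside liver it had 0.0713 in outer medulla column 2 and 0.0477 in hypothalamus column 1, 1 fragment each, and was listed at 0 in the other 8 columns. The liver values themselves stood on 13 and 2 fragments. With 2 fragments, the 95% Poisson interval of column 2 ran from 0.0822 to 2.45 FPKM, which spans the value of column 1. That column reads 3 fragments, the limit used here for a count of 0, as 1.02 FPKM for a transcript of this length. Its value therefore lay below the level at which a 0 could have been read. Such intervals and limits cover counting error only.

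**Figure D1:**
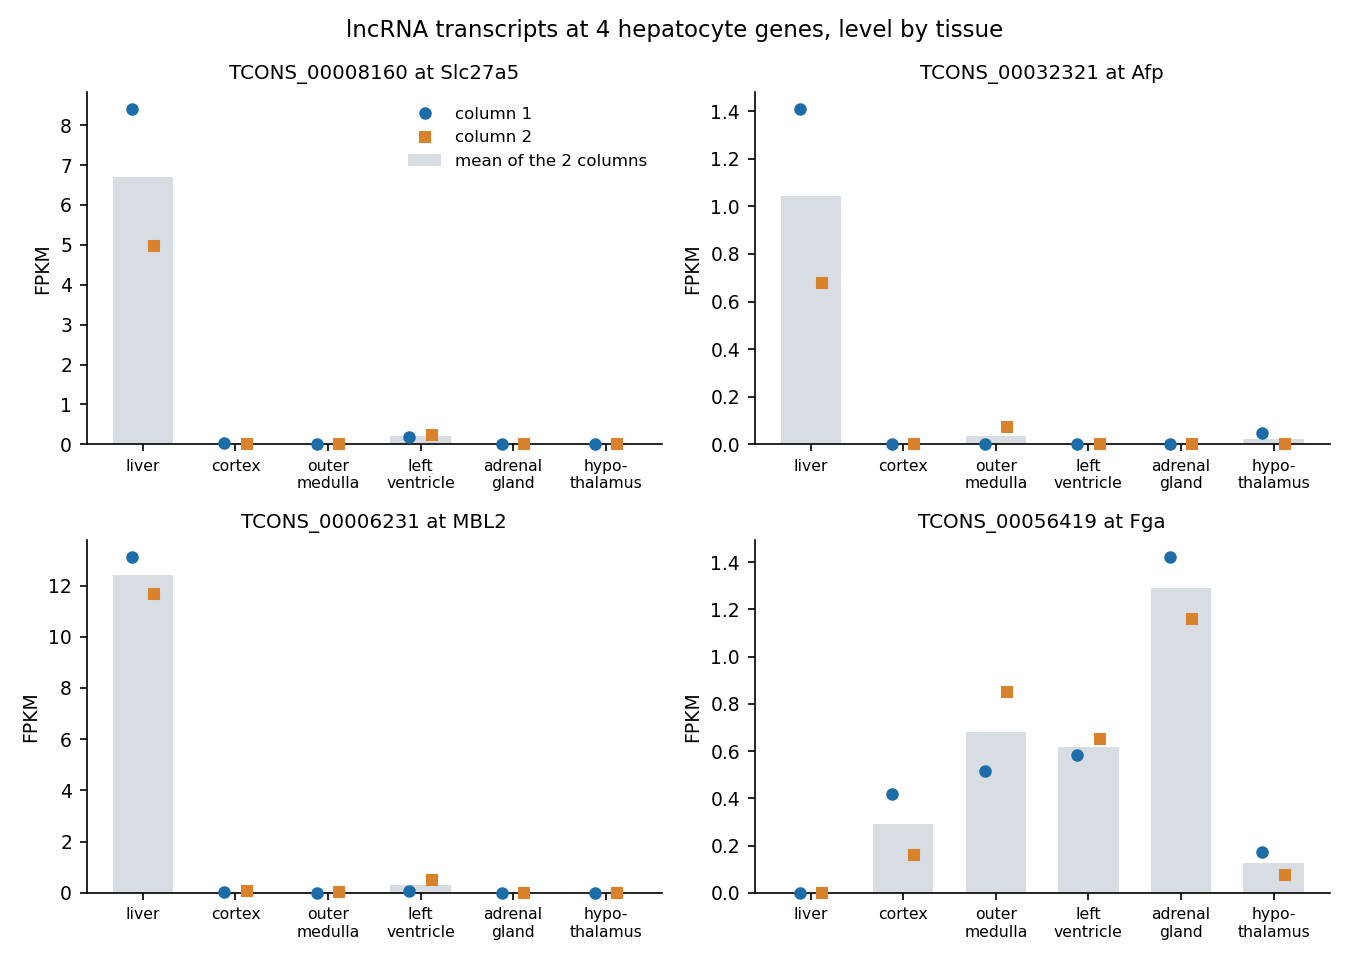
FPKM (vertical axis, from 0, a scale of its own in each panel) of the 4 transcripts in 6 tissues; points are the 2 columns of a tissue and bars their mean, with no error bar. Slc27a5, Afp and MBL2 transcripts have their bar in liver (means of 6.69, 1.04 and 12.4), and the Fga transcript has none in liver and its highest in adrenal gland (1.29).

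Across the liver-high transcripts, 30 values lay outside liver. Of these 18 were listed at 0, 9 stood for 1 fragment, and 3 stood for more than 1, all of them in left ventricle. Counted as fragments over both columns and scaled to depth, liver exceeded left ventricle 36.7-fold for the Slc27a5 transcript (201 against 7 fragments, 95% interval 17.5 to 92.4). The ratio for the MBL2 transcript was 43.9 (275 against 8 fragments, 22.0 to 103). For the Afp transcript it was 33.6 over outer medulla (15 against 1 fragment, 5.17 to 1420), so the interval of Afp takes in those of both others. These intervals cover counting error only. They are not a test of liver against the other tissues, since the members and the next tissue were picked with these values known.

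**Figure D2:**
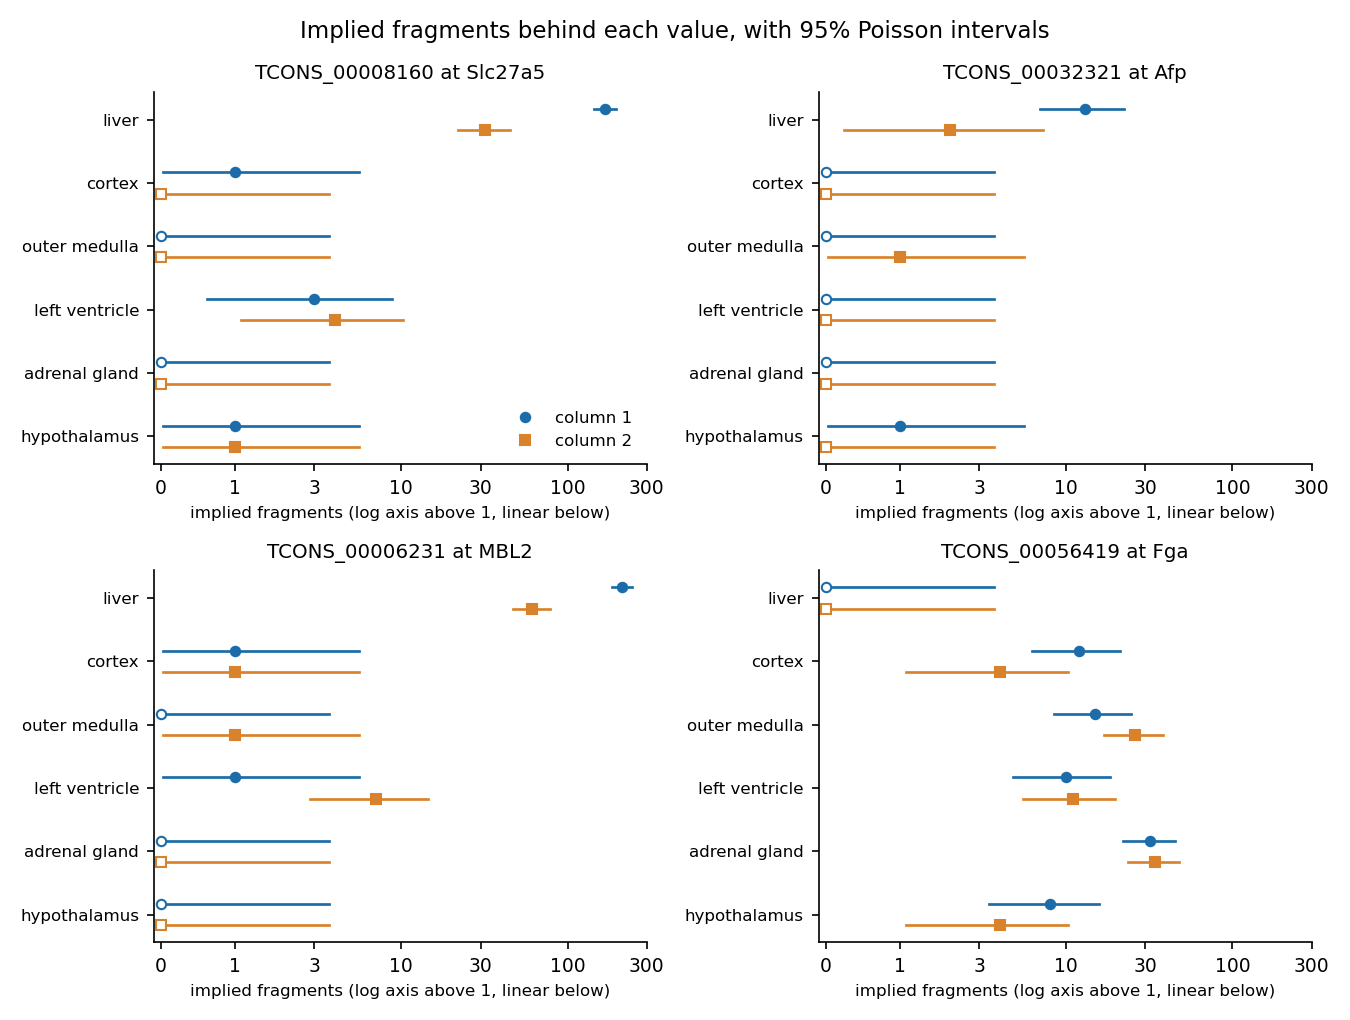
Implied fragments behind each value (horizontal axis, logarithmic above 1 and linear below) with 95% Poisson intervals, by tissue and column; open symbols stand for values listed at 0. The 2 liver values of Slc27a5 (169 and 32) and MBL2 (214 and 61) lie clear of every other tissue, while the interval of Afp in liver column 2 (2 fragments) overlaps those of values listed at 0.

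With 0.1 added to each mean, the liver level was 22.1 times that of the next tissue for the Slc27a5 transcript, 31.9 times for MBL2 and 8.44 times for Afp. The ratio at MBL2 depended on which left ventricle column was used, at 20.4 without column 1 and 72.5 without column 2. All 4 transcripts reached a mean FPKM of 1 in at least 1 tissue, and 3 of the 4 were at least 5-fold above every other tissue. The same held for 13.6% of 1269 transcripts at that level (173), for 16.2% of the 105 that lie antisense to an exon and for 9.17% of the 120 with another exonic overlap. Since the members were picked with these levels known, nothing is read from their share. The Afp transcript fell out of the count with a pseudocount of 1, at a 10-fold threshold, when the fold was required in every column, and without liver column 1, where its level of 0.679 was below the minimum. Within the 173, ordered by this ratio, MBL2 was at rank 33, Slc27a5 at 52 and Afp at 138. Ordered by liver FPKM, Afp was at rank 172, next to the lowest.

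**Figure D3:**
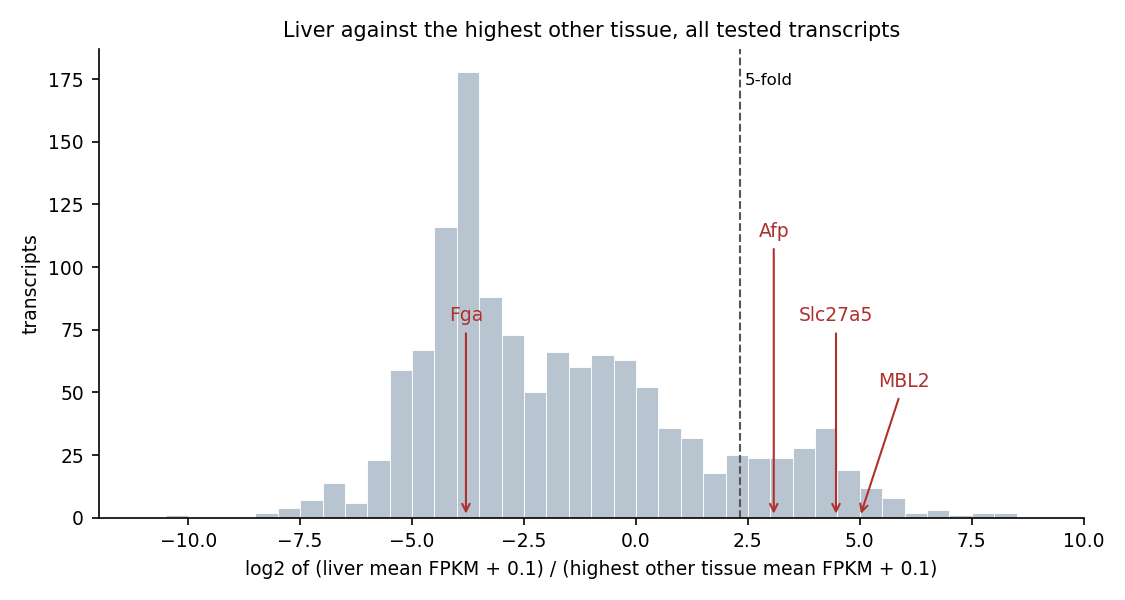
Histogram of the log2 ratio of liver to the highest other tissue (mean FPKM + 0.1; horizontal axis) over 1269 transcripts, with their number on the vertical axis and the 5-fold threshold as a dashed line. Arrows mark the 4 transcripts: Afp (8.44 times), Slc27a5 (22.1) and MBL2 (31.9) lie beyond the threshold, and the place of Fga, listed at 0 in liver, is set by the added 0.1.

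Left ventricle was the next tissue for 73 of the 173 liver-high transcripts. At their median these 173 stood at 0.112% of their liver mean in left ventricle column 1 and 0.545% in column 2. The Slc27a5 transcript stood at 2.63 and 3.56% and the MBL2 transcript at 0.584 and 4.13%, while Afp was listed at 0 in both columns. The part of liver RNA in these left ventricle values was not tested.

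The liver columns differed in depth, at about 12100000 implied fragments in column 1 and 3880000 in column 2. Column 2 was 0.591 times column 1 for the Slc27a5 transcript, with a 95% interval of counting error from 0.392 to 0.866. It was 0.891 times for MBL2 (0.658 to 1.19) and 0.481 times for Afp (0.0526 to 2.12). On the deposited scale the interval excluded equal levels at Slc27a5 and took them in at MBL2 and Afp. With the columns rescaled to the same median, the ratio at Slc27a5 was 0.714 (0.474 to 1.05), so its interval then took them in as well. Over the 473 transcripts whose liver mean reached an FPKM of 1, the median ratio was 0.843 with 0.1 added (quartiles 0.576 and 1.44). The ratios of the 3 transcripts on that scale were 0.596, 0.891 and 0.516, so Slc27a5 and MBL2 lay between the quartiles and Afp below the lower one.

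The transcript that overlaps Fga went the other way. It was listed at 0 in both liver columns, where fibrinogen is known to be made. Adrenal gland had an FPKM of 1.42 and 1.16, outer medulla of 0.516 and 0.8496, and left ventricle of 0.584 and 0.651. Cortex had 0.419 and 0.161, and hypothalamus had 0.174 and 0.0758. Adrenal gland was the highest in both columns and did not overlap any other tissue. The share of all transcripts whose highest tissue stood clear in this way was not counted, so nothing is read from it. Outer medulla and left ventricle overlapped each other, and so did cortex column 2 and hypothalamus. Adrenal gland rested on 32 and 34 fragments, outer medulla on 15 and 26, left ventricle on 10 and 11, cortex on 12 and 4, and hypothalamus on 8 and 4.

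A 0 in liver was taken to allow up to 3 fragments, which is an FPKM of 0.148 in column 1 and 0.463 in column 2. Both columns of adrenal gland, outer medulla and left ventricle exceeded both limits. Both cortex columns and hypothalamus column 1 exceeded the limit of liver column 1 only, and hypothalamus column 2 exceeded neither. The lower bounds of cortex column 2 (0.0438) and hypothalamus column 1 (0.0751) lay below the limit of liver column 1 too. A difference between liver and hypothalamus was therefore not detectable in every column at this depth. An exact 0 in a table of FPKM can also be a failed estimate, and 24.4% of the 1053 transcripts whose mean reached an FPKM of 1 in another tissue were listed at 0 in both liver columns. The FPKM is that of this transcript and not of the Fga messenger RNA.

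The pairs of tissues without liver are not what the members were named for, and they were tested, although their FPKM was also known beforehand. Among these 5 tissues the Fga transcript was the only one of the 4 that reached the minimum for a test, a mean FPKM of 0.5 in at least 1 of them. It did so in adrenal gland, outer medulla and left ventricle (1.29, 0.683 and 0.618), not in cortex or hypothalamus (0.290 and 0.125). Each pair called below sets a tissue at the minimum against a tissue below it. The p-values therefore describe this transcript and are no independent support for its pattern. The tissues were compared with limma on log2(FPKM + 0.1), over 1620 transcripts and all 10 pairs, with Benjamini-Hochberg adjustment over both. It differed in 4 of 10 pairs, against 39.6% of all 16200 tests, so its share of calls was that of the table as a whole. Adrenal gland exceeded hypothalamus by 2.66 on the log2 scale (SE 0.43, limma adjusted p = 0.0022) and cortex as well (log2 difference of cortex minus adrenal gland -1.91, SE 0.43, adjusted p = 0.01). Hypothalamus was also exceeded by outer medulla (log2 difference 1.80, SE 0.43, limma adjusted p = 0.013) and by left ventricle (1.71, SE 0.43, adjusted p = 0.016). In these 4 pairs 36.9, 45.0, 50.7 and 39.6% of the transcripts differed, in the same order. In the pairs without a call at Fga the share was 17.5% for cortex against outer medulla, 40.9% for cortex against left ventricle and 51.9% for cortex against hypothalamus. It was 36.7% for outer medulla against left ventricle, 41.9% for outer medulla against adrenal gland and 35.4% for left ventricle against adrenal gland. Of these 6 pairs, cortex against outer medulla had the lowest limma adjusted p, 0.095. Adrenal gland was not separated from outer medulla (log2 difference of outer medulla minus adrenal gland -0.86, adjusted p = 0.17) or left ventricle (left ventricle minus adrenal gland -0.95, adjusted p = 0.13). With a pseudocount of 1 both pairs were called (limma adjusted p = 0.046 and 0.031). In simulated data limma recovered 2% of 2-fold changes. Only adrenal gland was changed there, and limma made 343 calls, against 6423 in the real fit. The adjustment for many tests was therefore stricter in the simulation, so 2% is not the share of the real fit. A missing call is still no sign of equal levels.

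Adrenal gland against hypothalamus was called under all 17 alternatives, with log2 differences from 1.03 to 3.37 and limma adjusted p from 0.0011 to 0.032. The others were less firm. Outer medulla against hypothalamus was lost without outer medulla column 2 or hypothalamus column 2, and left ventricle against hypothalamus without either left ventricle column or hypothalamus column 2. Cortex against adrenal gland was lost, at an adjusted p of 0.05, without cortex column 2 or adrenal gland column 1. Rescaling the columns to a common median shifted hypothalamus by 0.85 and 0.92 on the log2 scale and the other columns by -0.41 to 0.12. Outer medulla and left ventricle were then not separated from hypothalamus (limma adjusted p = 0.11 and 0.066), while the direction stayed.

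Transcripts high in adrenal gland also had a level in hypothalamus. For 129 of them, with an adrenal mean FPKM of at least 1 that was 5 times that of any tissue but hypothalamus, the median share of the adrenal level found in hypothalamus was 12.1% in column 1 (quartiles of 7.83 and 24.7%). In column 2 it was 5.50% (2.51 and 16.1%). The Fga transcript stood at 13.5 and 5.87%. It was not one of the 129, since its adrenal level was 1.89 times that of outer medulla. The part of adrenal RNA in its hypothalamus values was not tested. Without adrenal gland column 2 and hypothalamus column 1, adrenal gland against hypothalamus was the remaining called pair (log2 difference 3.11, limma adjusted p = 0.032).

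Most of the other genes in the lists had no lncRNA transcript. The share over all genes was not counted, so this is not read as a trait of the pathways. In 9 lists of 129 genes in all, 7 genes had one, of which 4 were the members. Of the 4 genes of the albumin cluster, Afp was the single one with a transcript, as was Fga among 15 genes of clotting and Slc27a5 among 15 of bile acid synthesis and transport. None of 19 further secreted hepatocyte products, 11 hepatocyte transcription factors and 18 markers of other liver cells had one, so the levels of those cells could not be read. In the list of 14 genes of mannose-binding lectin and complement, Masp1 stood beside MBL2. Masp1 encodes a protease that travels with mannose-binding lectin and cleaves complement proteins.

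A pair of transcripts antisense to Masp1 shared 1 interval (rn5 chromosome 11, 79916066 to 80021275) and had opposite tissues. TCONS_00022825, of 1905 bases, had 5.03 and 3.01 FPKM in liver and 1.17 and 0 in left ventricle, and was below 0.01 in the 8 other columns. With 0.1 added it stood 6.00 times above left ventricle, the same highest and next tissue as at MBL2. Left ventricle column 1 decided both: the ratio was 3.24 without left ventricle column 2, and without column 1 it was 37.7 with hypothalamus as the next tissue. Without liver column 1 the ratio was 4.53. TCONS_00022826, of 1894 bases, was listed at 0 in liver and outer medulla and reached 1.35 and 1.58 in left ventricle. Hypothalamus had 0.424 and 0.207, cortex 0.257 and 0, and adrenal gland 0 and 0.161. How fragments were divided between transcripts of 1 locus was an estimate of the authors' program, and the ratio of 6.00 rests on that division. In the order of the pair, the means were 4.02 and 0 in liver and 0.586 and 1.47 in left ventricle. Taken as a locus, liver therefore stood less far above left ventricle. In left ventricle TCONS_00022825 stood for 21 and 0 fragments and TCONS_00022826 for 24 and 28, and the cause of the difference at the first was not tested.

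**Figure D4:**
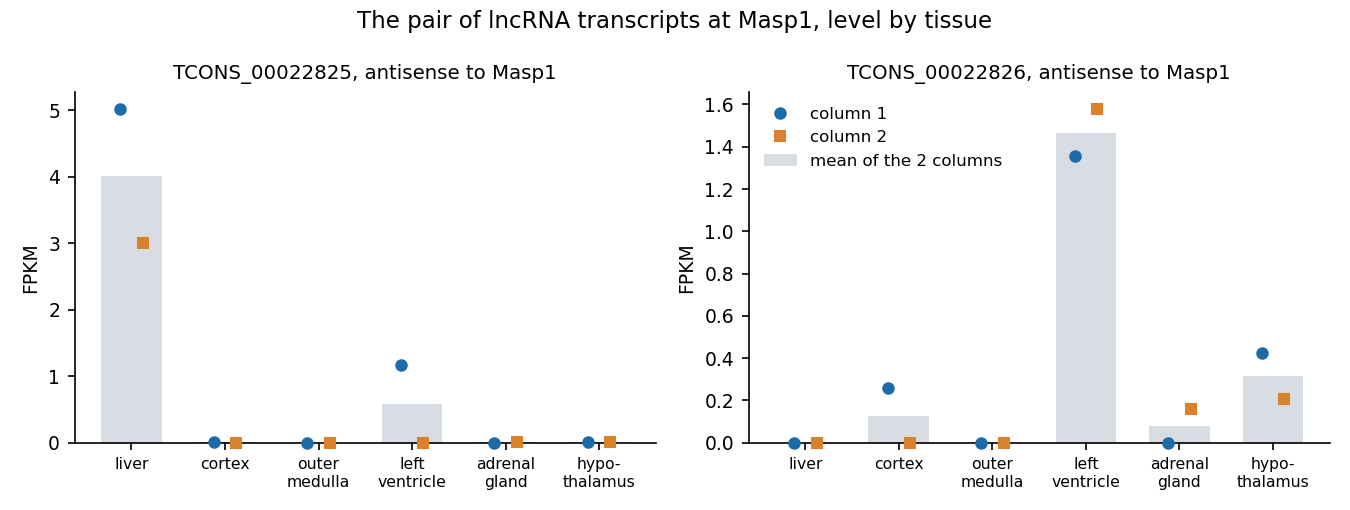
FPKM (vertical axis, from 0, a scale of its own in each panel) of the pair of transcripts antisense to Masp1 in 6 tissues; points are the 2 columns and bars their mean, with no error bar. The transcript on the left is highest in liver (5.03 and 3.01) and the one on the right in left ventricle (1.35 and 1.58), with 0 listed in liver.

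Afp is a gene of fetal liver, and the same list of 8 genes held transcripts at Mir675, a microRNA made from the imprinted fetal RNA H19. TCONS_00012142 had 39.2 and 100.3 FPKM in liver against 14.2 and 17.8 in cortex, a liver level 4.33 times the next tissue with 0.1 added. The liver columns stood far apart, and the ratio was 6.23 without liver column 1 and 2.44 without liver column 2. TCONS_00012143, at the same interval, had 0.808 and 0 FPKM in liver against 0.581 and 0.538 in adrenal gland, a liver level 0.764 times that of adrenal gland. That ratio was 1.38 without liver column 2, so liver column 2 decided its direction.

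Over the 12 columns, the Slc27a5 and MBL2 transcripts followed each other closely (Pearson's r = 0.99 on log2(FPKM + 0.1)), and Afp followed both with r = 0.93. The Fga transcript ran against them, with r of -0.69, -0.71 and -0.68 to Slc27a5, Afp and MBL2. Columns of a tissue are not independent and the contrast of liver with the rest carries these values, so they have no p. The transcripts outside the 4 whose pattern was most like Slc27a5 had no reference gene, with TCONS_00072316 (chromosome 3, 148689766 to 148749038) and TCONS_00090571 (chromosome 6, 139499021 to 139506641) at r = 0.997 and TCONS_00103543 (chromosome 8, 33970014 to 34029231) at 0.996. TCONS_00090571 had 8.16 and 5.60 FPKM in liver and 0.143 and 0.145 in left ventricle, close to the values at Slc27a5. Most like MBL2 were TCONS_00008420 and TCONS_00008421 (r = 0.992), which were listed with identical values at the interval of chromosome 1 from 77557451 to 78012500, and again TCONS_00103543 (0.991). Most like Afp were TCONS_00044269 (0.984), TCONS_00007109 and TCONS_00006303 (0.981 each), with no reference gene and at most 2.48 FPKM in liver.

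The transcripts most like Fga were of another kind. TCONS_00094523 (r = 0.96) shares a splice junction with Phlda1 and had 1.31 and 1.55 FPKM in adrenal gland against 0.133 and 0 in liver. TCONS_00079972 (r = 0.956) shares one with Bid, a gene of programmed cell death, and had 5.90 and 5.49 in adrenal gland against 1.68 and 0.957 in liver. TCONS_00000103 (r = 0.932), with no reference gene, reached 2.23 and 1.81 in adrenal gland against 0.565 and 0.467 in liver. All 3 had their highest level in adrenal gland, as the Fga transcript did, and unlike it each had at least 1 liver column above 0. They were picked for likeness to Fga over these same columns, so nothing is read from the shared highest tissue.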

How the data were processed

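RNA was measured in 6 tissues with 1 sample each. TRIzol served for RNA extraction and a TruSeq Stranded RNA LT kit for the libraries, per the labels' protocols. The submitters' processing notes name the build rn5 and bcl2fastq 2.15.0. The deposited values are FPKM per transcript for transcripts that the authors selected as lncRNAs. The aligner, the FPKM program, its annotation and the strand setting are not named. Transcript lengths, another kind of deposited value, are in bases. Of 2458 rows, 3 held no values.

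Members and gene lists were chosen with earlier results of these data known. Named transcripts were all rows of the 4 gene names, the 3 most correlated transcripts of each, any transcript within 200 kb, and all rows of the lists. Columns of a tissue were averaged. Ratios used FPKM + 0.1 over transcripts that reached a mean FPKM of 1. Differences between the 5 other tissues were tested with limma 3.58.1 (R 4.3.3) with a mean-variance trend. Depth came from the steps of low FPKM values of 1045 transcripts over 500 bases alone at their locus. It was 3880000 to 31900000 fragments per column, and 84.0 to 90.9% of low values lay within 0.15 of a whole number. The 14 member values of 1 to 6 fragments lay within 0.03. No count test was run. Both methods were tested on simulated data. In 1620 transcripts with adrenal gland changed, limma recovered 2.0% of the changes of 2-fold, 47.5% of those of 4-fold and 68.0% of those of 8-fold. Of its 343 calls 5.2% were false. The real fit made 6423 calls, so its adjustment was less strict and these shares are not those of the real fit. Simulated depths were found within 0.015%. Python 3.11.15, pandas 2.3.3, NumPy 2.4.6 and SciPy 1.17.1 were used. The alternatives were other pseudocounts, folds and minimums, rescaled columns, sums per locus, each column left out, a block for the column number and other measures of likeness.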

Additional observations from a re-analysis of the deposited data

How the results depend on the processing

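Liver stayed above every other tissue at Slc27a5, Afp and MBL2 under each alternative tried. Its ratio to the next tissue was 23.1 for Afp and 41.0 for MBL2 with a pseudocount of 0.01, and 6.37, 1.97 and 10.4 for Slc27a5, Afp and MBL2 with a pseudocount of 1. The number of all transcripts 5-fold above was 60 with a pseudocount of 1 and 104 when the fold was required in every column, against 173. Rescaling the columns turned the ratio of liver column 2 to column 1 at MBL2 from 0.891 to 1.08. Of the 3 transcripts most like a member, Spearman's rho over tissue means kept 0 for Slc27a5, Afp and Fga and 1 for MBL2, and a pseudocount of 1 kept 0 for MBL2. Why these changed was not tested. At the highest rho 5 transcripts were tied for Fga and 2 for MBL2. The first 3 listed were taken, so the 0 for Fga rests in part on that order. The Fga transcript differed in 2 to 6 pairs of tissues when 1 column was left out, where the lone column of a tissue was assumed to vary like the others. With the replicate block for the column number it differed in 4 pairs, as without it, and 6306 tests passed in all, against 6423. Column numbers are not given in the labels, and differences between columns correlated at -0.07 to 0.13 between tissues, so the numbers were not taken to pair the columns. Leaving out 1 column at a time, the ratio to the next tissue was 16.5 to 27.7 for Slc27a5, 5.74 to 11.1 for Afp and 20.4 to 72.5 for MBL2. Leaving out columns other than those of liver there, the rescaled intervals of the liver columns, and the columns left out at Masp1 and Mir675 were chosen after seeing the data. Rescaling, and leaving out adrenal gland column 2 with hypothalamus column 1, were chosen for the Fga pairs after seeing the data. Depth limits the Afp transcript, at 2 fragments in liver column 2, and the Fga transcript, at 0 in both liver columns.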
